A study of Rattus norvegicus with 6 samples.

Results

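Gapdh, Sdha and Rplp1 are transcripts in wide use as references against which other RNAs are measured, and on a rat piRNA array they were read by 9 of 39886 non-control probes. The members were taken by accession: all probes for NM_017008 (Gapdh), NM_130428 (Sdha) and NM_001007604 (Rplp1), 3 probes a gene and 10 spots a probe. The array held 88 probes for rat transcripts, of which 61 (38 genes) could be named by accession from RefSeq's GRCr8 annotation. The samples were total RNA of pancreatic islets from Goto-Kakizaki (GK) rats (n = 3) and from Wistar rats (n = 3), all 3 months old and untreated as far as the labels say. GK rats are an inbred, non-obese model of type 2 diabetes derived from Wistar stock, so many loci differ between the strains and no single allele is tested. Per the labels, each islet sample was extracted on its own, and sex and number of animals per sample are not given in the sources used here. RNA was labelled with Cy3 by RNA ligase at its 3′ end, which does not select full-length messenger RNA, so intact transcripts and their fragments cannot be told apart. None of 36 listed markers of islet endocrine, acinar, duct, endothelial, immune and stromal cells had a named probe, so the labelled tissue was not checked against markers.

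Gapdh encodes glyceraldehyde-3-phosphate dehydrogenase, the glycolytic enzyme that oxidises glyceraldehyde 3-phosphate and reduces NAD. Sdha encodes the flavoprotein subunit of succinate dehydrogenase, which works both in the citrate cycle and as complex II of the mitochondrial respiratory chain. Rplp1 encodes an acidic phosphoprotein of the stalk of the large ribosomal subunit, where elongation factors bind. In beta cells, glycolysis and mitochondrial oxidation link glucose to insulin secretion, so the first 2 genes belong to the pathway by which islets sense glucose, and the third to the translation machinery. GRCr8 lists 91 loci named as Gapdh pseudogenes or Gapdh-like genes and 6 such loci for Rplp1, and none for Sdha. Probe sequences were not used here, and a signal at a Gapdh or Rplp1 probe may include RNA from such copies.

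Slide 1 carried GK 1 beside the 3 Wistar samples, and slide 2 carried the remaining GK samples, as read from shared scan times. Between 24.5% and 36.3% of non-control probes were well above background per array, a flag of the scanner software, with the highest share on GK 2. The 75th percentile of the 7795 probes detected on all arrays, to which each array was scaled, was 200, 151 and 142 intensity units on GK 1, 2 and 3, and 239, 197 and 202 on Wistar 1, 2 and 3. It was thus lowest on GK 2 and GK 3. A probe was called detected on an array where at least 50% of its spots carried the flag. Scaled values are log2 signal minus log2 of that percentile, and each strain difference is GK minus Wistar on this scale unless another is named.

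Of the 9 probes, 7 were detected on all 6 arrays, and the other two were Gapdh probe 36 and Sdha probe 39. Probes are named here by the number in their identifier, so that CUST_36_PI422140147 is probe 36. Of the 540 spots, 479 were well above background, 248 of 270 on GK arrays and 231 of 270 on Wistar arrays. All 180 Rplp1 spots carried the flag, 151 of 180 Sdha spots and 148 of 180 Gapdh spots. No spot was saturated, and 16 spots with outlier flags were left out of the means.

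The 3 Gapdh probes all gave higher mean scaled signals in GK islets, but none passed the threshold across all tested probes. The log2 difference was 0.75 and 0.59 at the probes detected on all arrays, while the third has only a bound in Wistar. Gapdh probe 34 had processed signals of 28.9, 23.3 and 14.6 on GK 1, 2 and 3, against 27.5, 16.3 and 10.2 on Wistar 1, 2 and 3. Its strains overlapped both before and after scaling. Scaled, it averaged -2.92 ± 0.31 in GK and -3.67 ± 0.60 in Wistar (SD, n = 3 each), a log2 difference of 0.75 (SE 0.36, 95% interval -0.10 to 1.60), with an adjusted p of 0.462 in limma.

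Gapdh probe 35 had signals of 50.8, 27.7 and 26.4 on the GK arrays, against 38.2, 27.4 and 23.4 on the Wistar arrays. GK 1 was the brightest array and Wistar 3 the dimmest, and the strains overlapped until the arrays were scaled. Scaled, every GK value lay above every Wistar value, at -2.28 ± 0.27 in GK and -2.87 ± 0.24 in Wistar (SD, n = 3 each). The log2 difference was 0.59 (SE 0.26, adjusted p = 0.455 in limma).

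Gapdh probe 36 was the dimmest Gapdh probe. It gave 16.8, 22.1 and 9.89 on the GK arrays, against 9.87, 7.53 and 7.84 on the Wistar arrays. On the GK arrays 10, 10 and 7 of its 10 spots were well above background, and on the Wistar arrays 0, 1 and 3. It was thus detected on every GK array and on no Wistar array, so its Wistar level is only a bound. The lowest signal of any detected probe was 9.20, 10.6 and 8.07 on GK 1, 2 and 3. On Wistar 1, 2 and 3 it was 13.4, 9.25 and 8.07. GK 3 and Wistar 1 thus had nearly equal unscaled signals at probe 36, yet 7 spots were flagged on GK 3 and 0 on Wistar 1. On the scaled values the GK mean was 2.01-fold above the Wistar bound. This fold sets the GK mean against the mean of, per Wistar array, the higher of the probe's own signal and the lowest signal of any detected probe. It is a ratio of means and leaves out the spread between arrays. With the other scalings, chosen here after seeing the data, the fold was lower, at 1.44-fold with the percentile of all probes, 1.54-fold with no scaling and 1.44-fold with quantile normalization. The limma fit used the measured signals, which averaged -3.40 ± 0.56 in GK and -4.66 ± 0.06 in Wistar (SD, n = 3 each), 1.27 higher in GK on the log2 scale (SE 0.32, adjusted p = 0.379). Its unadjusted p of 0.00531 was the only p under 0.05 among the 9 probes. Probes detected on at least 3 arrays were tested, and this probe met that only through the GK arrays, where it was higher. Its p and the separation of its strains therefore give no support of their own. With normexp background correction, run with an offset of 50 intensity units added to every spot, the log2 difference was 0.46. Such an offset narrows log2 differences by construction, most at dim probes.

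**Figure D1:**
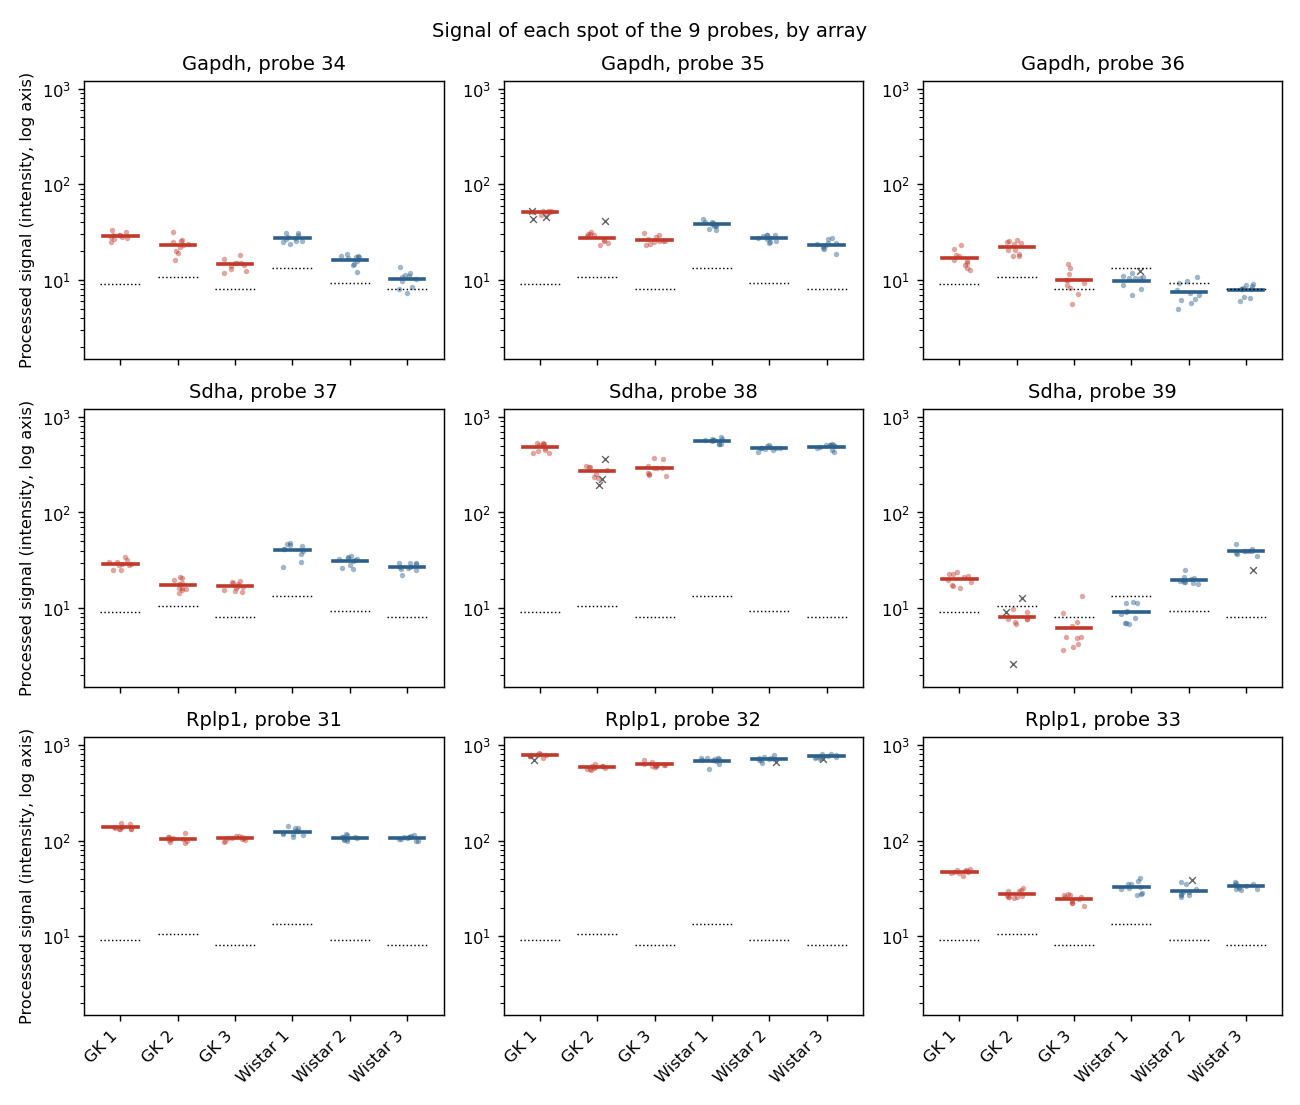
Processed signal of every spot (points), mean over spots without outlier flags (bars) and spots with outlier flags (crosses) for the 9 probes, by array, on a log axis of intensity units before scaling between arrays. Dotted lines mark the lowest signal of any detected probe on that array. Gapdh probe 36 sits at or below that line on the Wistar arrays, Sdha probe 39 crosses it within each strain, and the Rplp1 probes lie well above it.

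The Sdha probes gave lower mean signals in GK islets, but the scaled strains overlapped at all 3 and none passed the threshold. Sdha probe 38, the brightest of them, gave 482, 272 and 290.4 on the GK arrays, against 562, 471 and 487 on the Wistar arrays. GK 2 and GK 3 lay far below the rest, and GK 1 lay within the Wistar range. After scaling it averaged 1.05 ± 0.21 in GK and 1.25 ± 0.02 in Wistar (SD, n = 3 each), a log2 difference of -0.20 (SE 0.23, 95% interval -0.75 to 0.34, adjusted p = 0.696 in limma).

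Sdha probe 37 gave 29.2, 17.6 and 16.9 on the GK arrays, against 40.3, 31.3 and 27.0 on the Wistar arrays. The order of arrays resembled that of probe 38, with GK 2 and GK 3 lowest. The log2 difference after scaling was -0.27 (SE 0.24, adjusted p = 0.611 in limma), with overlapping strains.

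Sdha probe 39 behaved unlike the other two. It gave 20.2, 7.995 and 6.26 on the GK arrays, against 9.02, 19.9 and 39.6 on the Wistar arrays, and it was detected on 1 GK array and 2 Wistar arrays. The highest array was 6.32 times the lowest, with the highest and the lowest on Wistar 3 and GK 3. Its log2 difference of -0.55 had an SE of 0.62 and a 95% interval from -2.02 to 0.91 (adjusted p = 0.692 in limma). Its size depended on single arrays, at -0.00067 without Wistar 3, -1.19 without Wistar 1, -0.91 without GK 1 and -0.31 without GK 3.

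The Rplp1 probes were the steadiest of the 3 sets between arrays before scaling. Rplp1 probe 31 gave 138, 105 and 105 on the GK arrays, against 124, 107 and 107 on the Wistar arrays, so the strains overlapped. Scaling separated them, at -0.50 ± 0.06 in GK and -0.92 ± 0.03 in Wistar (SD, n = 3 each). The log2 difference was 0.42 (SE 0.21, 95% interval -0.08 to 0.92, adjusted p = 0.463 in limma).

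Rplp1 probe 32, the brightest of the 9, gave 779, 587 and 625 on the GK arrays, against 685, 720 and 759 on the Wistar arrays. GK 2 and GK 3 were the lowest arrays and GK 1 the highest. Scaled values did not overlap between strains, and GK was higher by 0.25 on the log2 scale (SE 0.24, adjusted p = 0.631 in limma).

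Rplp1 probe 33 gave 47.3, 27.8 and 24.8 on the GK arrays, against 32.9, 29.9 and 33.5 on the Wistar arrays. Again GK 1 was highest and GK 2 and GK 3 lowest, and the scaled strains did not overlap. The log2 difference was 0.38 (SE 0.24, adjusted p = 0.514 in limma).

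Of the 9 probes, 0 passed the adjusted threshold of 0.05 in limma, against 5 (0.0438%) of all 11407 tested. Only 1 had an unadjusted p under 0.05, against 10.8% of all tested probes and 22.9% of the 70 tested rat transcript probes. In 5 of the 9 all GK values lay above all Wistar values (Gapdh probes 35 and 36 and the 3 Rplp1 probes), and in 0 all lay below. Gapdh probe 36, which was also the probe with the low unadjusted p, was tested only through its detection on the GK arrays. Among tested probes with a value on every array, 12.5% were separated upward and 5.19% downward. Among the 70 tested rat transcript probes, which include the 9 members, these shares were 32.9% and 1.43%. Upward separation was thus common in the class the members belong to. The median log2 difference was 0.38 over the 9 probes, 0.34 over the 70 transcript probes and 0.17 over all tested probes.

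**Figure D2:**
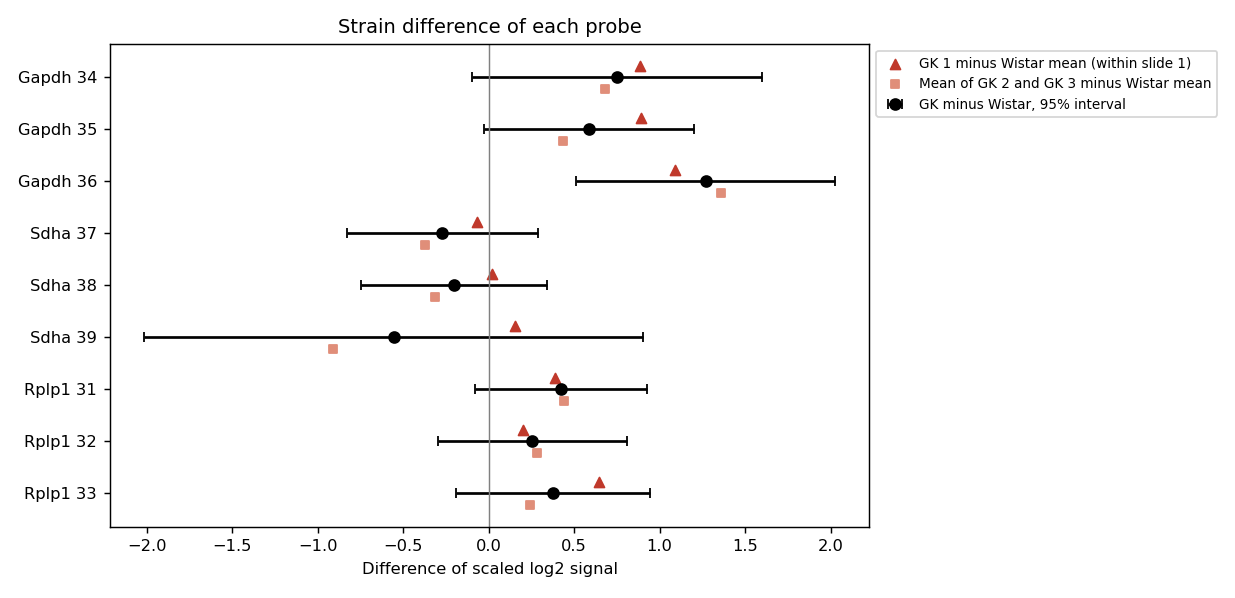
Strain difference of the scaled log2 signal for each probe, GK minus Wistar, with its 95% interval from limma (black), the difference of GK 1 from the Wistar mean (triangles) and that of GK 2 and GK 3 (squares). The Gapdh and Rplp1 probes lie above 0 and the interval of Gapdh probe 36 alone excludes 0 before adjustment, while GK 1 sits near 0 at the Sdha probes. Gapdh probe 36 entered the test only through its detection in GK.

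Within slide 1 the Gapdh and Rplp1 differences had the same sign as over all arrays, and those of Sdha were near 0 or positive. GK 1 stood 0.88, 0.89 and 1.09 above the Wistar mean at Gapdh probes 34, 35 and 36, and GK 2 and GK 3 together 0.68, 0.43 and 1.36. At Rplp1 probes 31, 32 and 33, GK 1 was 0.39, 0.20 and 0.64 above, and GK 2 and GK 3 were 0.44, 0.28 and 0.24 above. At Sdha probes 37, 38 and 39, GK 1 differed from the Wistar mean by -0.07, 0.02 and 0.15, whereas GK 2 and GK 3 differed by -0.37, -0.31 and -0.91. Slide 2 held GK samples only, so for GK 2 and GK 3 the strain and the slide cannot be told apart.

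Averaged over their 3 probes, Gapdh and Rplp1 separated the strains with the percentile of detected probes, and Sdha did not. The mean scaled value of Gapdh was -2.87 ± 0.28 in GK and -3.73 ± 0.29 in Wistar (SD, n = 3 each), a log2 difference of 0.87 (two-sided exact permutation p = 0.1). That of Rplp1 was -0.27 ± 0.06 in GK and -0.62 ± 0.12 in Wistar, a log2 difference of 0.35 (two-sided exact permutation p = 0.1). For Sdha it was -1.98 ± 0.33 in GK and -1.64 ± 0.35 in Wistar, a log2 difference of -0.34 (two-sided exact permutation p = 0.2). With 3 against 3 the smallest p is 0.1, so none could pass 0.05, and adjusted over the 3 genes the p-values were 0.15, 0.15 and 0.2. From probes detected on all arrays alone, the log2 difference was smaller for Gapdh, at 0.67, and for Sdha, at -0.24, and unchanged for Rplp1. In bulk RNA, fewer cells holding a transcript and less of it per cell cannot be told apart.

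The Gapdh separation and the sign of the Rplp1 difference depended on how the arrays were scaled. The Gapdh mean was higher in GK by 0.39 with the percentile of all non-control probes, 0.48 with no scaling and 0.45 with quantile normalization, and in each of these the strains overlapped (two-sided exact permutation p = 0.2). The Gapdh means in this paragraph include probe 36, which was detected on no Wistar array. With these 3 scalings, in the same order, probe 36 was at 0.79, 0.88 and 0.76. Probe 34 was at 0.27, 0.37 and 0.32, and probe 35 at 0.11, 0.20 and 0.26. For Rplp1 the log2 difference of the 3-probe mean was 0.26 with quantile normalization, -0.03 with no scaling and -0.13 with the percentile taken over all non-control probes. These settings move the median log2 difference of all tested probes by -0.26, -0.38 and -0.48. Set against that median, which was 0.17 with the percentile of detected probes, Rplp1 was 0.18 higher, Gapdh 0.70 higher and Sdha 0.51 lower. With quantile normalization they were 0.36 and 0.54 higher and 0.60 lower, and with normexp 0.04 and 0.19 higher and 0.24 lower, for Rplp1, Gapdh and Sdha. A constant per array cancels in this measure, so the other percentile and no scaling give the same values by construction, and these are 3 distinct settings.

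**Figure D3:**
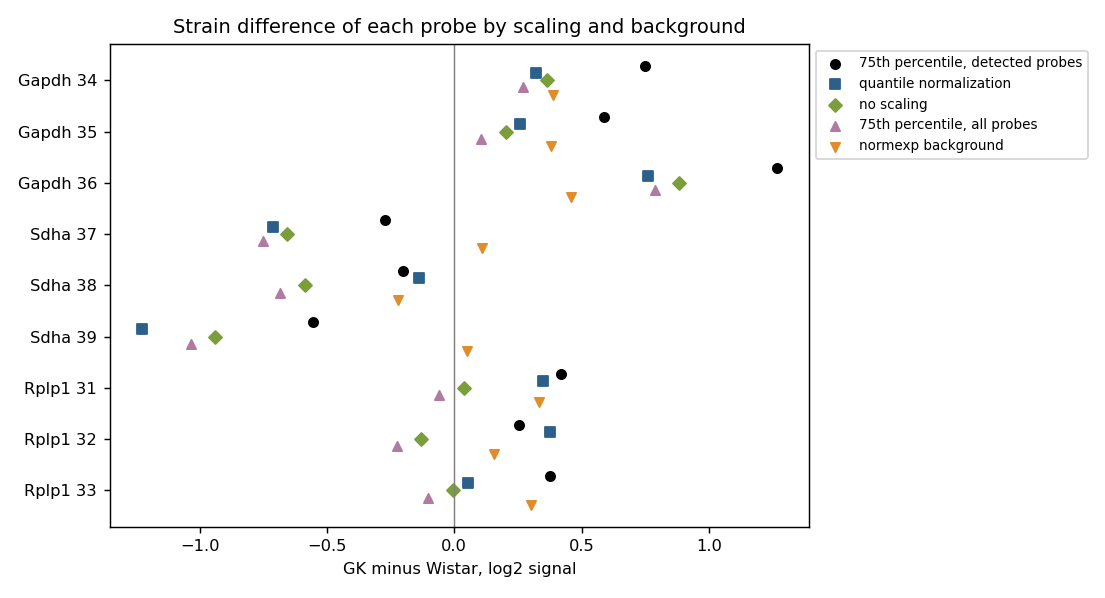
GK minus Wistar difference of log2 signal for each probe under 4 ways of scaling the arrays and under normexp background correction. The Gapdh probes stay above 0 in all 5 settings, the Rplp1 probes all fall below 0 with the percentile over all probes and probes 32 and 33 also do without scaling, and normexp brings Sdha probes 37 and 39 to 0.11 and 0.05.

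Ratios between the genes within an array do not depend on a constant scaling of that array, and 2 of the 3 separated the strains. The log2 ratio of Gapdh over Sdha was -1.17, -0.48 and -1.005 on the GK arrays, against -1.43, -2.15 and -2.71 on the Wistar arrays. Every GK array lay above every Wistar array, and GK 1, on the same slide as the Wistar arrays, did so too. The mean difference was 1.21 on the log2 scale (two-sided exact permutation p = 0.1, the smallest possible). From probes detected on all arrays alone, 2 for each gene, it was 0.91 with the same separation, and with normexp 0.43.

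The log2 ratio of Sdha over Rplp1 was -1.39, -1.83 and -1.91 on the GK arrays, against -1.26, -0.99 and -0.79 on the Wistar arrays. All GK arrays lay below all Wistar arrays, GK 1 by a narrow margin from Wistar 1, and the mean log2 difference was -0.69 (two-sided exact permutation p = 0.1). It was -0.59 from probes detected on all arrays, -0.29 with normexp and -0.37 within slide 1. The log2 ratio of Gapdh over Rplp1 overlapped, with -2.59 ± 0.31 in GK and -3.11 ± 0.40 in Wistar (SD, n = 3 each), a difference of 0.52 (two-sided exact permutation p = 0.2). In all, 12 ratios were tested, 3 between genes and 9 between probes of the same gene, and the lowest Benjamini-Hochberg adjusted p was 0.6. A strain difference in a ratio would show only that the genes changed unequally, not which of them changed.

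**Figure D4:**
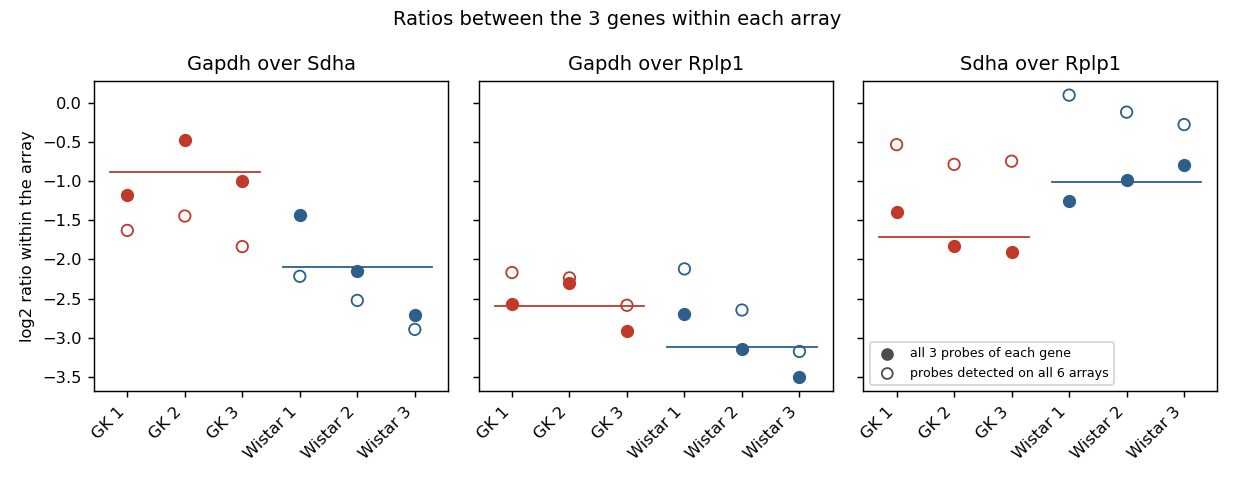
Log2 ratio between 2 genes within each array, from the mean of 3 probes per gene (filled, with the strain mean as a line) or from the probes detected on all 6 arrays (open). Gapdh over Sdha is higher on every GK array than on every Wistar array and Sdha over Rplp1 is lower, whereas Gapdh over Rplp1 overlaps.

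Probes of the same gene differed widely in brightness, which depends on the probe and gives no order of transcript amount. For Rplp1 the mean signal in GK was 116, 664 and 33.3 at probes 31, 32 and 33, and in Wistar 113, 721 and 32.1. For Sdha it was 21.2, 348 and 11.5 in GK at probes 37, 38 and 39, and 32.9, 507 and 22.8 in Wistar. For Gapdh the probes were closer together, at 22.2, 34.99 and 16.3 in GK and 18.0, 29.6 and 8.41 in Wistar. None of the 9 log2 ratios between probes of the same gene separated the strains on the scaled values, with differences between -0.68 for Gapdh probe 35 over 36 and 0.35 for Sdha probe 38 over 39. With quantile normalization Sdha probe 37 over 38 did, at -0.57, with normexp Rplp1 probe 32 over 33, at -0.15, and with outlier spots kept Gapdh probe 35 over 36, at -0.66 (two-sided exact permutation p = 0.1 each). Gapdh probe 36 was not detected on any Wistar array, so the last of these separations gives no support of its own.

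Across the 6 arrays the Gapdh probes correlated with each other at 0.68 to 0.86 (Pearson's r of scaled values, n = 6 arrays, as a description) and the Rplp1 probes at 0.61 to 0.76. Sdha probes 37 and 38 correlated at 0.78, but probe 39 correlated with probe 37 at only 0.06. These values share arrays and their scaling.

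The spots of a probe agreed closely within an array. The coefficient of variation over spots had a median of 5.11% for Rplp1, 10.4% for Sdha and 12.8% for Gapdh, and ranged from 3.45% to 47.6%, the last at Sdha probe 39 on GK 3. The SD of a probe over the 6 arrays was 1.45 to 4.73 times its median SD over spots on the log2 scale, where the first also holds any strain difference. The SD over the 6 arrays of scaled log2 values was lowest for Sdha probe 38 (0.17) and Rplp1 probe 32 (0.20), the brightest probes of their genes. It was 0.22 for Sdha probe 37, 0.23 for Rplp1 probe 31, 0.27 for Rplp1 probe 33 and 0.39 for Gapdh probe 35. It was highest for Gapdh probe 34 (0.59), Gapdh probe 36 (0.78) and Sdha probe 39 (0.91). The median over all tested probes was 0.45, with quartiles of 0.30 and 0.68.

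Other genes of the same pathways were few on the array. Of 25 listed genes of glycolysis and of lactate and pyruvate metabolism, 3 had probes, and 0 of their 6 tested probes passed the adjusted threshold, while 2 had an unadjusted p under 0.05, both higher in GK, against 22.9% of tested rat transcript probes and 10.8% of all tested probes in either direction. Pgk1, the glycolytic kinase that acts next after Gapdh, had log2 differences of -0.41 (SE 0.36) and 0.09 (SE 0.28) at its 2 tested probes, with adjusted p of 0.611 and 0.894 in limma. Its strains overlapped at both. Pdk3, a kinase that inhibits pyruvate dehydrogenase, had a difference of 1.57 (SE 0.37, adjusted p = 0.348 in limma), and Ldha, a lactate dehydrogenase subunit, differences of 3.37, 1.25 and 0.34 at 3 probes (adjusted p = 0.455, 0.455 and 0.583 in limma). The Ldha probe with the widest difference spanned 124 to 250.1 intensity units in GK and 2.69 to 116 in Wistar. None of 13 listed genes of the citrate cycle and succinate dehydrogenase had a probe. Among listed ribosomal protein genes only Rpl13a, of the large subunit, had tested probes, with log2 differences of 0.10 (SE 0.23) and 0.34 (SE 0.28).

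Of 14 other listed reference transcripts 4 had probes, and 0 of their 8 tested probes passed the adjusted threshold, with 2 at an unadjusted p under 0.05, against the same 22.9% and 10.8%. Actb, cytoskeletal beta-actin, had log2 differences of 0.13, 0.22 and 0.11 at its 3 probes (SE 0.24, 0.31 and 0.26). B2m, the light chain of MHC class I, had 0.94, 1.75 and 0.51, with the smallest adjusted p of the list, 0.111 in limma. Hprt1, a purine salvage enzyme, had -0.58 (SE 0.44) and Gusb, a lysosomal glucuronidase, 0.14 (SE 0.30) at 1 tested probe each.

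The named transcripts most like each gene were taken by Pearson's r of scaled means over the 6 arrays, among 34 other genes with tested probes. For Gapdh they were Pdk3 (0.95), Slc28a2, a nucleoside transporter (0.94), and Napepld, a phospholipase D type enzyme (0.94). For Sdha they were Hprt1 (0.99), Map2, a microtubule-associated protein (0.81), and Ppp2r2b, a regulatory subunit of protein phosphatase 2A (0.80). For Rplp1 they were B2m (0.96), Enpp1, an ectonucleotide pyrophosphatase (0.84), and P2rx2, an ATP-gated channel (0.83). Over 6 arrays such values are a description only, and they also hold any strain difference and the shared scaling. In the order named, the log2 differences were 1.57, 1.33 and 2.15 for the genes beside Gapdh. They were -0.58, -0.12 and -0.29 for those beside Sdha, and 1.06, 2.22 and 3.18 for those beside Rplp1.

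Used as the scale themselves, Gapdh and Rplp1 put most probes lower in GK, and Sdha put most higher. Scaling on a gene subtracts its level on each array from all probes, so its own strain difference is taken off every other. The Gapdh level included probe 36, detected on no Wistar array, and the Sdha level probe 39, detected on 1 GK array and 2 Wistar arrays. With them the gene differences were 0.87 for Gapdh and -0.34 for Sdha. From probes detected on all arrays alone they were 0.67 and -0.24, and scaling on those probes alone was not tested. With arrays scaled on the 3 Gapdh probes, 61 tested probes were higher in GK and 3868 lower at an unadjusted p under 0.05, and the median log2 difference was -0.70. With the 3 Sdha probes the counts were 1523 higher and 128 lower and the median 0.51. With the 3 Rplp1 probes they were 211 higher and 1420 lower and the median -0.18. With the mean of all 3 genes they were 237 higher and 1202 lower, against 915 higher and 319 lower with the percentile of detected probes. Scaling that used none of the 3 genes also moved this split, to 167 higher and 1097 lower with the percentile of all probes, 235 and 1020 with no scaling and 397 and 607 with quantile normalization. At the adjusted threshold the counts were 10 with Gapdh, 46 with Sdha, 11 with Rplp1 and 13 with all 3, against 5 with the percentile. These scalings were chosen after seeing the data.

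**Figure D5:**
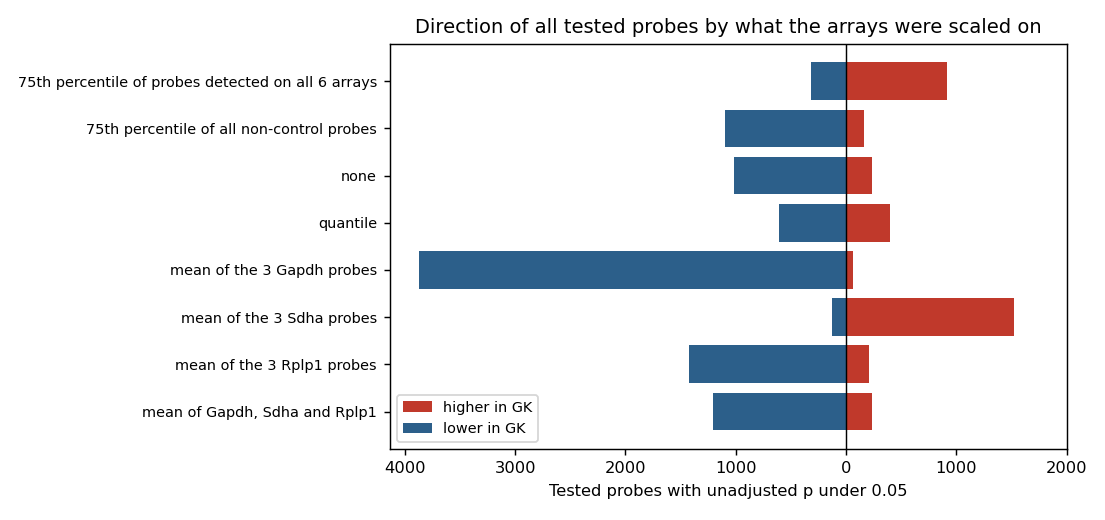
Number of the 11407 tested probes with an unadjusted p under 0.05 that were higher (right) or lower (left) in GK islets, by what the arrays were scaled on. Scaling on Gapdh gives 61 higher and 3868 lower and scaling on Sdha 1523 higher and 128 lower.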

How the data were processed

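Islet RNA of 3 GK and 3 Wistar samples was hybridised, 1 sample per one-colour Agilent array, after Cy3 labelling by RNA ligase, per the labels' protocols. Per the file headers, the scans were quantified in Feature Extraction 11.0.1.1 (Agilent). The deposited scanner files hold intensity values for 42734 spots each. Per the file headers, these are processed signals, corrected for background on each array but with no step that makes arrays comparable. The deposited tables of piRNA values hold none of the 9 probes and were not used here. Probe sequences and the strand of the probes were not used here.

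Spots without outlier flags were averaged per probe. The values tested were log2 of this mean minus each array's 75th percentile over 7795 probes detected on all 6 arrays. Probes detected on at least 3 arrays were tested (11407 with enough values) in limma (version 3.58.1, under R 4.3.3; lmFit, then eBayes). The model held strain alone, and p-values were adjusted over all tested probes by Benjamini-Hochberg, with a threshold of 0.05. Single values used two-sided exact permutation tests over samples. The fit was tested on simulated data. No depth applies to arrays, and their number limits the precision. No pair of arrays was duplicated, with correlations of 0.873 to 0.969 over 11358 probes. The labels do not name the animals behind each sample, so p-values measure the spread between these samples. Members and lists were chosen with earlier results of these data known. The genes named beside the members came from the lists, or were the 3 transcripts most like each member. Alternatives covered scaling, background correction, outlier spots, filters, single arrays left out, the replicate number and the slide. Normexp was run on median spot signals and local background, with an offset of 50 intensity units.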

Additional observations from a re-analysis of the deposited data

How the results depend on the processing

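None of the 9 probes passed the adjusted threshold of limma under any setting in which their own values were taken, with adjusted p from 0.136 to 1.00. That leaves out the scalings on the genes themselves, for which only counts over all tested probes were taken. The log2 difference of the Gapdh mean stayed positive in all 17 settings, between 0.39 and 1.03, although the strains overlapped with 3 of the scalings. The log2 ratio of Gapdh over Sdha stayed positive in all 15, between 0.43 and 1.54. That of Sdha over Rplp1 stayed negative in all 15, between -0.95 and -0.29. The Gapdh values include probe 36, detected on no Wistar array and tested only through its detection in GK. From probes detected on all arrays alone, the Gapdh mean was at 0.67 and its ratio over Sdha at 0.91. At the lower end of 0.39, probe 36 was at 0.79 and probes 34 and 35 at 0.27 and 0.11. Probes 34 and 35 were positive in every setting, with these as their lowest values. By construction the replicate block repeats the main value, and the slide block that within slide 1, so these settings are not all distinct. The Rplp1 mean turned to -0.13 with a percentile of all probes other than controls (-0.060, -0.23 and -0.10 at probes 31, 32 and 33) and to -0.033 with no scaling (-0.13 at probe 32 and -0.0067 at probe 33). This follows from the construction of these scalings, which move all probes alike. With the slide as a block, and equally within slide 1, where GK 1 alone stands against Wistar, the Sdha mean was 0.034 (0.017 at probe 38 and 0.15 at probe 39). With normexp Sdha probe 37 was at 0.11 and probe 39 at 0.049, and the cause of this turn in sign was not tested. The normexp setting adds an offset of 50 intensity units, which narrows log2 differences of dim probes by construction. The count of probes with strains apart was 3 with the percentile over all probes (1 higher and 2 lower in GK), 1 with no scaling (higher) and 3 with quantile normalization (all higher), against 5, all higher. With normexp it was 6, of which 5 were higher and 1 lower. With the flag for positive and significant signal 539 of the 540 spots counted as detected, against 479.

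Ratios between probes of the same gene turned sign as follows, and the cause was not tested. Quantile normalization gave -0.025 for Rplp1 probe 31 over 32 and 0.32 for 32 over 33, and it moved Sdha probe 38 over 39 to 1.09 without a turn. Normexp gave 0.33 for Sdha probe 37 over 38 and -0.27 for 38 over 39. Slide as a block, and within slide 1, gave -0.010 for Gapdh probe 34 over 35, -0.26 for Rplp1 probe 31 over 33, -0.22 for Sdha probe 37 over 39 and -0.14 for 38 over 39. Leaving out single arrays gave ranges of -0.032 to 0.33 for Gapdh probe 34 over 35, -0.077 to 0.19 for Rplp1 probe 31 over 33, -0.27 to 0.038 for 32 over 33, -0.17 to 0.0098 for Sdha probe 37 over 38, -0.37 to 0.98 for 37 over 39 and -0.19 to 0.98 for 38 over 39. The lowest value for 38 over 39 came without Wistar 3.

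Over all tested probes, 5 passed. The count was 14 with a percentile of all probes other than controls, 0 with quantile normalization, 15 with normexp, 8 where outlier spots stayed in, 8 where eBayes used a trend and robust fit, 2 among probes detected on all 6 arrays and 0 without the filter on dim probes. It was 0 with the slide as a block and 0 within slide 1, where limma fitted a single GK array. Leaving out single arrays gave 0 to 21, at 21 without GK 1, which leaves each strain on a slide of its own, and 0 without any other single array. The strains share replicate numbers in the labels. Same-numbered arrays deviated together at r = -0.03, 0.04 and 0.04, and the replicate number as a block gave 0 probes and changed no call among the 9. Scaled on the genes themselves, chosen after seeing the data, the count was 10 for Gapdh, 46 for Sdha, 11 for Rplp1 and 13 for all 3. Low signal over background limits Gapdh probe 36 and Sdha probe 39 most.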
